A study of Sus scrofa with 22 samples.

Results

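GHRL, CHGB, PCSK1 and UCHL1, 4 genes of hormone-secreting and nerve cells of the gut wall, were described in the small intestine of 22 piglets. They were found on the arrays by joining probe accessions to RefSeq pig gene symbols, which gave 21 of 43603 probes: 1 for GHRL, 15 for CHGB, 3 for PCSK1 and 2 for UCHL1. The array holds 35866 symbols or identifiers, of which 24767 were bright enough to be tested, all 4 genes among them. The genes were chosen by their log2 ratios in the same 4 groups, so every comparison of these 4 genes is a description and carries no p-value.

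The piglets were specific-pathogen-free crosses of Large White and Danish Landrace, described as 3 days old; the stage of the experiment this age refers to is not stated. They came from 2 separate experiments, 1 for each treatment. BUCY treated piglets (n = 5) received busulfan with cyclophosphamide, both DNA-alkylating drugs, and BUCY untreated piglets (n = 5) were the controls of that experiment. DOX treated piglets (n = 6) received a single dose of doxorubicin, a topoisomerase II inhibitor, and DOX untreated piglets (n = 6) were the controls of the other. All groups had suckled, were anaesthetised and carried an orogastric tube and a jugular catheter, through which the drugs were given. The labels used here do not name the segment of the small intestine, the doses or the time of sampling.

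Enteroendocrine cells are scattered among the epithelial cells of the gut, arise from the same crypt stem cells and release peptide hormones from dense-core granules. Ghrelin, made from GHRL chiefly in the stomach and in fewer cells along the small intestine, stimulates appetite and growth hormone release. Chromogranin B is a granule protein of such cells and of neurons, and the prohormone convertase encoded by PCSK1 cuts prohormones into active peptides inside the granule. UCHL1, a ubiquitin hydrolase also called PGP9.5, is abundant in neurons and is widely used to stain the nerve plexuses of the intestinal wall.

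Values are log2 ratios between the Cy5 signal of 1 piglet and the Cy3 signal of the pooled samples hybridised with it, so 0 is the level of the pool and levels of different genes cannot be compared. Between 59.67% and 72.49% of the probes of an array stood well above background. The number of arrays limits the precision. BUCY treated piglets 2 and 3 stood apart at the high end of the second principal component (25.67% of the variance). They lay at 55.4 and 67.6 against at most 28.5 for any other array. The BUCY untreated arrays lay far out on its other side, between -44.7 and -30.7. BUCY treated piglet 3 had the lowest median Cy5 intensity, 88.5. Results that rest on BUCY treated piglets 2 and 3 are given with and without them. Of 231 pairs of arrays 7 correlated under -0.3, the lowest at -0.38; the labels state the dyes, so the direction of the ratios was kept. In whole tissue, fewer cells of a type and less RNA per cell cannot be told apart.

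GHRL separated the 2 experiments more widely than any other of the 4 genes, and within the BUCY experiment it was lower after treatment. In BUCY treated piglets 1 to 5 its log2 ratios were 0.047, -0.44, -0.84, 0.44 and -0.0074. In BUCY untreated piglets 1 to 5 they were 0.52, 0.35, 0.91, 1.26 and 1.63. Of the treated piglets only piglet 4 lay above the lowest untreated piglet, so the groups overlapped by 1 animal. The means were -0.16 ± 0.49 in BUCY treated and 0.93 ± 0.52 in BUCY untreated piglets (SD, n = 5 each), a difference of -1.09 (SE 0.322) or 2.13-fold lower. Without BUCY treated piglets 2 and 3 the difference was -0.77.

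In DOX treated piglets the GHRL ratio ran from -1.20 to -0.50 with a median of -0.91. In DOX untreated piglets it ran from -1.49 to -0.23 with a median of -0.94. Both DOX groups lay wholly below the BUCY untreated group, and the DOX treated range lay inside the DOX untreated one. Their means were -0.91 ± 0.27 in DOX treated and -0.90 ± 0.53 in DOX untreated piglets (SD, n = 6 each), a difference of -0.0043 (SE 0.245). Its sign turned in 9 of 40 other settings, of which 22 left out 1 array. Leaving out a BUCY piglet could not change it. The change with BUCY minus the change with DOX was -1.09 (SE 0.405).

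**Figure D1:**
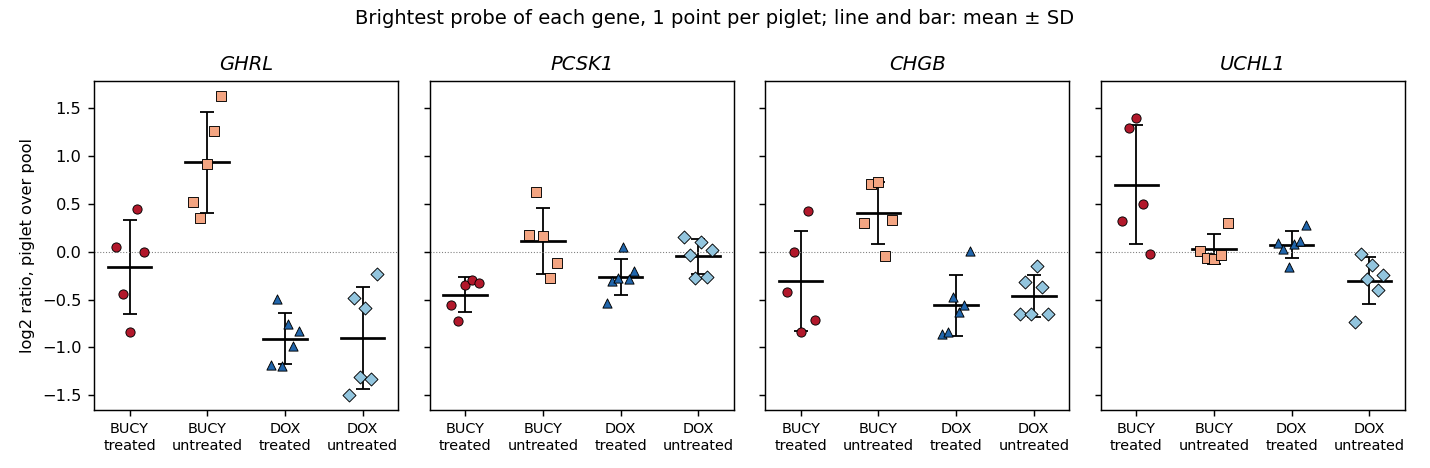
Log2 ratio of each piglet over the pool for the brightest probe of GHRL, PCSK1, CHGB and UCHL1 (y axis) in the 4 groups (x axis), with 1 point per piglet and the mean ± SD. GHRL is above 0 in all BUCY untreated piglets and below 0 in all DOX piglets, and UCHL1 is above 1 only in BUCY treated piglets 2 and 3.

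Between the untreated piglets of the experiments GHRL differed by 1.84, a larger step than that of -1.09 with BUCY. The mean was 0.93 ± 0.52 (SD, n = 5) in BUCY untreated and -0.90 ± 0.53 (SD, n = 6) in DOX untreated piglets, which is 3.57-fold higher (SE of the difference 0.321), and the groups did not overlap. Over all tested genes 17.9% showed no overlap between these untreated groups, so a gene without overlap is common in this comparison. The experiment and any difference in animals, age or segment between the experiments cannot be told apart there. On the slides that hold both untreated groups the difference was 1.74 and 2.41, and on such scan days 1.68 and 2.34. The change with BUCY within slides was -1.63 to -0.87 on the 3 slides with both BUCY groups. That change and the difference between untreated groups share the BUCY untreated piglets. Opposite signs of the 2 are thus not separate evidence, here and for all genes below. The order of the GHRL means was BUCY untreated, BUCY treated, DOX untreated and DOX treated, of which the last 2 did not differ beyond their spread.

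CHGB was measured by 15 probes, all well above background on all 22 arrays, and 15 of 15 were lower in BUCY treated than in BUCY untreated piglets. Its brightest probe read -0.42, -0.0011, -0.83, 0.42 and -0.72 in BUCY treated piglets 1 to 5. It read 0.30, 0.71, 0.73, -0.042 and 0.33 in BUCY untreated piglets 1 to 5. Treated piglet 4 stood among the untreated animals, and untreated piglet 4 among the treated ones. The means were -0.31 ± 0.52 in BUCY treated and 0.40 ± 0.32 in BUCY untreated piglets (SD, n = 5 each), a difference of -0.71 (SE 0.274) or 1.64-fold lower. Over the 15 probes the difference ran from -0.90 to -0.51 with a median of -0.73. Of them 2 showed no overlap between the groups, where 6.56% of all tested genes did. The 15 probes read the same piglets and correlated at r of 0.708 to 0.996, so their shared sign is not 15 separate results. Within slides the brightest probe differed by -1.14, -0.16 and -1.05, so 1 slide showed little of it.

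After DOX the CHGB probes were also lower in 15 of 15, but by less, from -0.35 to -0.079 with a median of -0.26, and none separated the groups. The brightest probe ran from -0.86 to 0.010 with a median of -0.59 in DOX treated piglets. It ran from -0.65 to -0.15 with a median of -0.51 in DOX untreated piglets. Its means were -0.56 ± 0.32 in DOX treated and -0.46 ± 0.22 in DOX untreated piglets (SD, n = 6 each), a difference of -0.096 (SE 0.157) that lies within the spread of either group. Between untreated animals the 15 probes were higher in the BUCY experiment by 0.43 to 0.87, with a median of 0.61. Of them 4 showed no overlap, where 17.9% of all tested genes did. For the brightest probe that difference was 0.87 (SE 0.168), or 1.82-fold higher, and the groups did not overlap. The CHGB means ran in the order BUCY untreated, BUCY treated, DOX untreated and DOX treated, and neighbours in it overlapped.

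**Figure D2:**
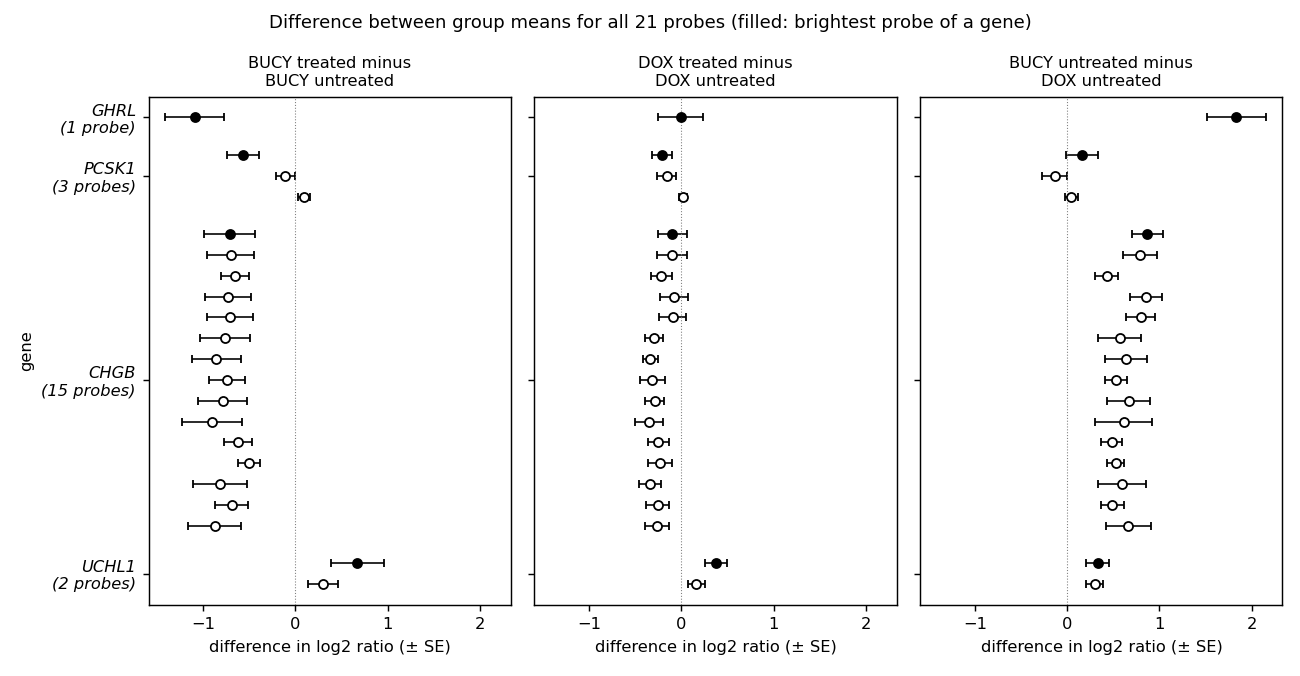
Difference between group means in log2 ratio (x axis, ± SE) for each of the 21 probes, listed by gene (y axis), in 3 comparisons; filled points are the brightest probe of a gene. All 15 CHGB probes lie below 0 for both drugs and above 0 between untreated groups, while the 3 PCSK1 probes do not share a sign in any of the 3 comparisons.

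The CHGB probes did not all read the same pattern. A set of 4, the brightest probe among them, was picked after the values were seen because they correlated above 0.98 with it. They had r of 0.989 to 0.996 with each other and of 0.810 to 0.890 with the other 11 over the 22 arrays. The other 11 had r of 0.708 to 0.993 with each other, so they are not 1 uniform set. The set of 4 averaged -0.52 ± 0.29 in DOX treated and -0.43 ± 0.23 in DOX untreated piglets (SD, n = 6 each). The other 11 averaged -0.37 ± 0.21 in DOX treated and -0.079 ± 0.14 in DOX untreated piglets. The sets parted most in DOX untreated piglets 1, 3, 5 and 6, where the 4 probes read from -0.67 to -0.31 and the other 11 from -0.22 to 0.16. The size of the DOX difference thus depends on the probe, with a median of -0.094 over the 4 probes and -0.29 over the other 11. For BUCY the medians were close, at -0.71 and -0.76.

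**Figure D3:**
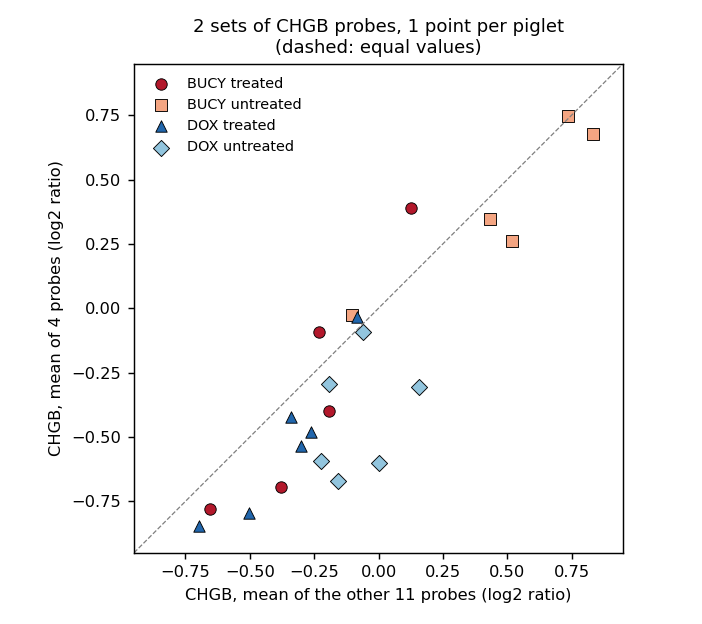
Mean log2 ratio of 4 CHGB probes (y axis) against the mean of the other 11 (x axis), 1 point per piglet, coloured by group, with the line of equal values. DOX untreated piglets 1, 3, 5 and 6 lie well below the line, and BUCY untreated piglets other than piglet 4 are in the upper right.

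PCSK1 was lower in BUCY treated piglets on its brightest probe, but its dimmer probes did not show it. The brightest probe read -0.56, -0.72, -0.34, -0.30 and -0.33 in BUCY treated piglets 1 to 5. It read 0.18, 0.62, 0.16, -0.27 and -0.12 in BUCY untreated piglets 1 to 5. All treated piglets lay below all untreated ones, though treated piglet 4 and untreated piglet 4 were separated by a narrow gap. The means were -0.45 ± 0.18 in BUCY treated and 0.11 ± 0.34 in BUCY untreated piglets (SD, n = 5 each), a difference of -0.56 (SE 0.174) or 1.48-fold lower. Over all tested genes 6.56% showed no overlap in this comparison, against 1 of these 4 genes by its brightest probe.

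The other PCSK1 probes were well above background on 14 and on 3 of the 22 arrays, and in BUCY treated against BUCY untreated piglets they differed by -0.11 (SE 0.104) and 0.093 (SE 0.0684). The dimmest was not well above background on any DOX untreated array. The brightest probe correlated with them at r = 0.53 and 0.074. Within slides the BUCY difference of the brightest probe was -0.72, -0.048 and -0.21, and within scan days -0.96, -0.048 and -0.21 and was thus largest on the first scan day. After DOX the brightest probe ran from -0.54 to 0.044 with a median of -0.28 in DOX treated piglets, and from -0.27 to 0.16 with a median of -0.0075 in DOX untreated piglets. Its means were -0.26 ± 0.19 in DOX treated and -0.050 ± 0.18 in DOX untreated piglets (SD, n = 6 each), a difference of -0.21 (SE 0.107) with overlapping groups. In BUCY untreated against DOX untreated piglets it differed by 0.16 (SE 0.171), less than the SD of 0.34 in the BUCY untreated group. The PCSK1 means ran in the order BUCY untreated, DOX untreated, DOX treated and BUCY treated, and neighbours in it overlapped.

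Among 2465 named genes, those whose pattern over the 22 arrays was most like PCSK1 were XCL1 (r = 0.839), a chemokine of cytotoxic lymphocytes, GZMA (0.824) and GZMB (0.802), granzymes of killer cells, CD96 (0.807), a receptor of T and NK cells, and SERPINF1 (0.803). With group means removed these r were 0.58 to 0.74. The median of 11 T and NK cell genes lay between -1.20 and -0.94 in BUCY treated and between -0.27 and 0.47 in BUCY untreated piglets. It lay between -0.57 and 0.39 in DOX treated and between 0.19 and 0.61 in DOX untreated piglets. Of those 11 genes 9 fell after BUCY, against 17.3% of all tested genes called, and 3 after DOX, against 0.868% (limma adjusted p under 0.05). The 3 were CD8A, LCK and CD3E, of which CD3E missed the threshold when any of DOX treated piglets 1, 2, 3 and 6 or DOX untreated piglets 1, 2, 3, 5 and 6 was left out (limma adjusted p = 0.0633 to 0.110). CD3D among them was not well above background on any BUCY treated array. Between untreated groups 2 of 11 were lower in the BUCY experiment, CD8A (-0.92, limma adjusted p = 8.40e-05) and CD2 (-0.99, limma adjusted p = 9.54e-04), against 25.2% of all tested genes called. PCSK1 was higher there by 0.16 (SE 0.171). PCSK1 correlated with the T and NK median at r = 0.69 over the 22 arrays and at 0.49 with group means removed. Without the 2 arrays farthest from the middle of that median r was 0.56. The part of these cells in the PCSK1 difference was not tested.

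UCHL1 was higher after both drugs, while the other 3 genes were lower after BUCY on their brightest probe. Its brightest probe read 0.32, 1.29, 1.40, 0.49 and -0.023 in BUCY treated piglets 1 to 5. It read 0.0057, -0.069, -0.081, -0.030 and 0.30 in BUCY untreated piglets 1 to 5. The high values were those of BUCY treated piglets 2 and 3, the arrays that stood apart, and piglet 5 lay within the untreated range. The means were 0.70 ± 0.62 in BUCY treated and 0.024 ± 0.16 in BUCY untreated piglets (SD, n = 5 each), a difference of 0.67 (SE 0.286) or 1.59-fold higher. Without BUCY treated piglets 2 and 3 the difference was 0.24. Within slides it was 0.41, 0.98 and -0.32.

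After DOX the UCHL1 difference was smaller and more even. The brightest probe ran from -0.16 to 0.28 with a median of 0.085 in DOX treated piglets, and from -0.73 to -0.027 with a median of -0.26 in DOX untreated piglets. All 6 treated piglets lay above the untreated mean, and the groups overlapped. The means were 0.072 ± 0.14 in DOX treated and -0.31 ± 0.25 in DOX untreated piglets (SD, n = 6 each), a difference of 0.38 (SE 0.116) or 1.30-fold higher, and within slides it was 0.47, 0.31 and 0.30. The second probe, which correlated with the first at r = 0.91, differed by 0.16 (SE 0.0903) after DOX and by 0.30 (SE 0.165) after BUCY, so the sign held and the size was smaller. Over all tested genes 2.61% showed no overlap after DOX, and none of the 4 genes did. Between untreated groups the brightest UCHL1 probe was higher in the BUCY experiment by 0.33 (SE 0.122), with overlap. The change with BUCY exceeded that with DOX by 0.30 (SE 0.309), within its error, and that difference was -0.14 without BUCY treated piglets 2 and 3. The UCHL1 means ran in the order BUCY treated, DOX treated, BUCY untreated and DOX untreated, and neighbours in it overlapped.

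The gene most like UCHL1 over the 22 arrays was NEFL (r = 0.932), the light neurofilament of neurons, followed by AK4 (0.931), an adenylate kinase of mitochondria, CALCRL (0.920), a receptor for calcitonin gene-related peptide and adrenomedullin, the transcription factor HAND1 (0.918) and CDK10 (0.902). Without the 2 arrays farthest from the UCHL1 median these r were 0.69 to 0.78. The median of 9 smooth muscle and pacemaker cell genes ran from 0.17 to 1.51 in BUCY treated and from -0.39 to 0.35 in BUCY untreated piglets. It ran from -1.23 to 0.36 in DOX treated and from -0.39 to 0.071 in DOX untreated piglets. All 9 were well above background on all 22 arrays. Of these genes 2 of 9 rose after BUCY, a share near the 17.3% of all tested genes called: DES, the muscle intermediate filament desmin (log2 change 1.02, limma adjusted p = 0.0293), and TPM1, a tropomyosin (0.71, limma adjusted p = 0.0381). Neither passed without BUCY treated piglets 2 and 3 (DES 0.59, limma adjusted p = 0.312; TPM1 0.34, limma adjusted p = 0.417). Both also missed the threshold when BUCY treated piglet 2 or 3 or BUCY untreated piglet 1, 2 or 3 alone was left out (limma adjusted p = 0.0539 to 0.124). UCHL1 correlated with the muscle median at r = 0.69 and with the median of 10 enteric neuron genes at r = 0.63. Without the 2 arrays farthest from the middle of each list median these r were 0.61 and 0.68. The part of muscle or of neurons in the UCHL1 difference was not tested.

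**Figure D4:**
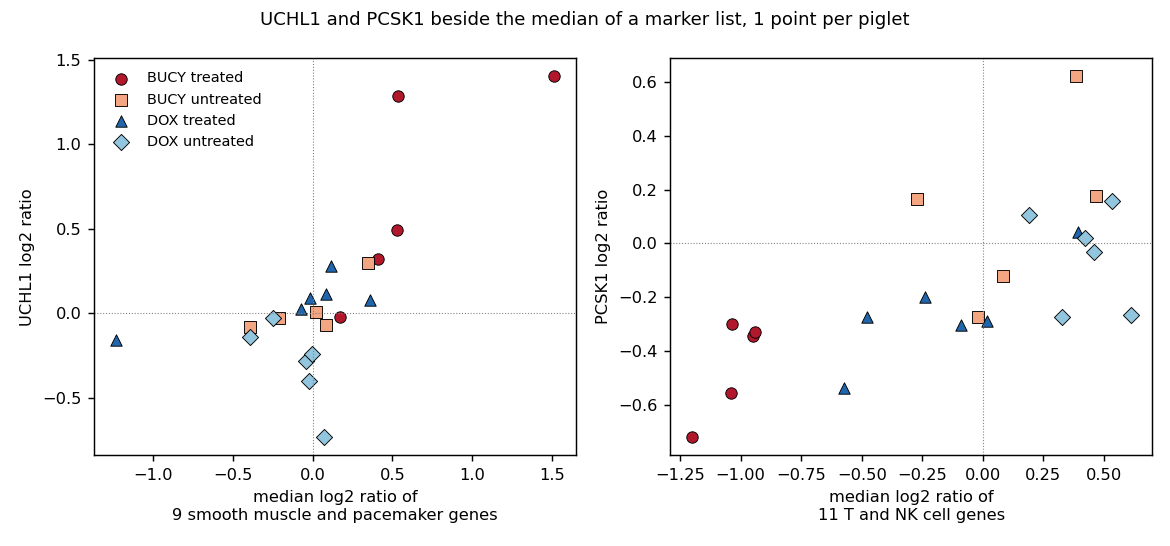
Left, UCHL1 log2 ratio (y axis) against the median log2 ratio of 9 smooth muscle and pacemaker genes (x axis); right, PCSK1 against the median of 11 T and NK cell genes; 1 point per piglet. BUCY treated piglets 2 and 3 are the highest in UCHL1, and all BUCY treated piglets lie at -0.94 or below on the T and NK axis.

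Other genes of hormone cells were then counted, from a list of hormones, granule proteins and transcription factors of 49 symbols, of which 18 had a probe and 14 beside the 4 genes were tested. After BUCY 1 of 14 fell and 0 rose (limma adjusted p under 0.05), where 17.3% of all tested genes were called. The gene that fell was SST, somatostatin, which restrains other gut hormones. SST averaged 0.15 ± 0.19 in BUCY treated and 0.58 ± 0.16 in BUCY untreated piglets (SD, n = 5 each; log2 change -0.43, SE 0.143, limma adjusted p = 0.0428). The call was lost when BUCY treated piglet 1, 2, 3 or 5 or BUCY untreated piglet 1, 2, 3 or 5 was left out (limma adjusted p = 0.0599 to 0.0936). After DOX 0 of 14 were called by limma, against 0.868% of all tested genes. At an unadjusted limma p under 0.05 there was 1, beside 3422 of all 24767 tested genes. The changes with BUCY and DOX differed in 0 of 14 by limma, against 5.87% of all tested genes. Without adjustment 1 had a limma p under 0.05, beside 4887 of all 24767 tested genes. The median log2 change of the 14 genes was -0.022 after DOX and -0.017 after BUCY, beside 0.0077 and -0.0013 over all tested genes.

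Between the untreated groups 6 of these 14 genes were called, where 25.2% of all tested genes were. The 3 that were higher in the BUCY experiment, as GHRL and CHGB were, are MLN, motilin, a hormone of the upper gut that drives contractions between meals (log2 difference 1.01, limma adjusted p = 0.00736), SST (0.73, limma adjusted p = 4.46e-04) and SCG2, secretogranin II, a granule protein (0.53, limma adjusted p = 0.0196). The 3 that were lower are GAST, gastrin, which stimulates gastric acid (-1.03, limma adjusted p = 2.30e-05), GCG, the precursor of glucagon-like peptides made in the distal gut (-0.84, limma adjusted p = 0.00533), and RAB27A, which moves granules to the membrane (-0.37, limma adjusted p = 0.0396). SCG2 missed the threshold without DOX untreated piglet 5 (limma adjusted p = 0.0503). RAB27A missed it when any of DOX untreated piglets 1 to 4 or BUCY untreated piglets 2 to 4 was left out (limma adjusted p = 0.0594 to 0.128). With median centring in place of loess SST (0.47, limma adjusted p = 0.269), SCG2 (0.37, limma adjusted p = 0.265) and RAB27A (-0.41, limma adjusted p = 0.0909) did not pass. With slide as a fixed block GCG (limma adjusted p = 0.0622) and RAB27A did not pass. The hormones thus differed between the experiments in both directions. CCK, cholecystokinin, averaged 0.19 ± 0.29 (SD, n = 5) in BUCY untreated and -0.35 ± 0.35 (SD, n = 6) in DOX untreated piglets and was not called (limma adjusted p = 0.0722).

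**Figure D5:**
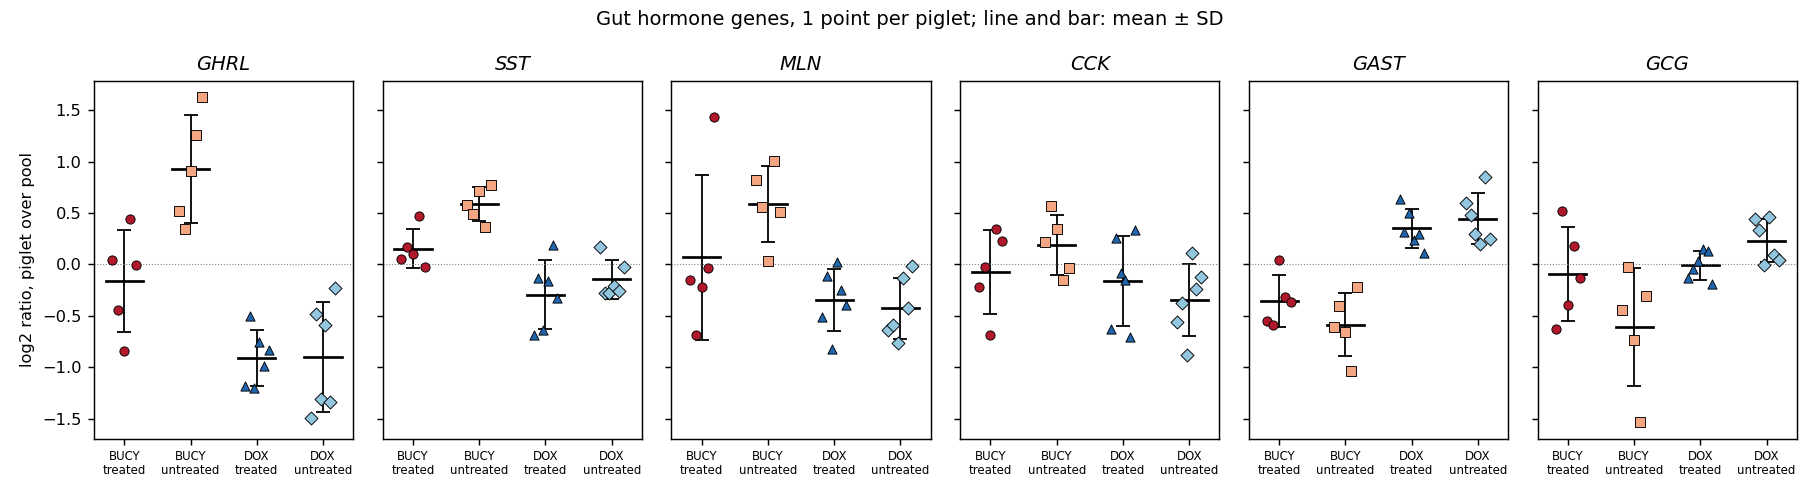
Log2 ratio to the pool (y axis) of 6 hormone genes in the 4 groups (x axis), 1 point per piglet with the mean ± SD. Among untreated piglets GHRL, SST and MLN are higher in the BUCY experiment without overlap, and GAST and GCG are lower without overlap.

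Genes that mark the distal small intestine also differed between the untreated groups of the experiments. All 3 measured, of 8 listed, were lower in BUCY untreated than in DOX untreated piglets: FABP6, the bile acid binding protein of ileal cells (log2 difference -2.21, limma adjusted p = 0.0181), SLC10A2, the ileal bile acid transporter (-1.90, limma adjusted p = 3.42e-06), and GCG. Their median ran from -1.53 to -0.96 in BUCY untreated and from 0.042 to 0.45 in DOX untreated piglets. Of all tested genes 25.2% were called in this comparison. After DOX 1 of the 3 was lower, SLC10A2 (log2 change -1.04, limma adjusted p = 0.0217), against 0.868% of all tested genes called. It missed the threshold without DOX treated piglet 3 or 6 or DOX untreated piglet 2 or 6 (limma adjusted p = 0.0516 to 0.0714). Over the 22 arrays the median of the 3 genes had r = -0.70 with GHRL and -0.57 with CHGB. With group means removed these r were 0.078 and -0.034. Of 9 genes of the proximal small intestine 2 were higher in BUCY untreated than in DOX untreated piglets, MLN and HPX (0.49, limma adjusted p = 0.0386). The 2 that were lower were FABP1 (-1.46, limma adjusted p = 0.0387) and DMBT1 (-2.23, limma adjusted p = 2.39e-07). HPX missed the threshold when any of DOX untreated piglets 1 to 5 or BUCY untreated piglets 3 and 4 was left out (limma adjusted p = 0.0524 to 0.135). FABP1 missed it when any of DOX untreated piglets 1, 2, 4, 5 and 6 or BUCY untreated piglets 3 to 5 was left out (limma adjusted p = 0.0506 to 0.0884). Whether the segment sampled differed between the experiments was not tested, and its part in the GHRL and CHGB differences cannot be told apart from that of the experiment. Of 4 measured genes of gastric epithelium, 0 were called between the untreated groups by limma, against 25.2% of all tested genes. At an unadjusted limma p under 0.05 there were 0, beside 8909 of all 24767 tested genes.

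Markers of the epithelium around the hormone cells also moved, and after BUCY much of this lay in BUCY treated piglets 2 and 3. Of 16 listed enterocyte genes 10 were tested, and 5 of 10 fell after BUCY, where 17.3% of all tested genes were called. They were TMPRSS15, the enteropeptidase that activates trypsinogen (log2 change -1.96, limma adjusted p = 0.00335), the brush border peptidases DPP4 (-1.67, limma adjusted p = 0.00556) and ANPEP (-0.99, limma adjusted p = 0.0175), the apolipoprotein APOA1 (-1.88, limma adjusted p = 0.0184) and SLC5A1, the sodium-glucose cotransporter (-1.48, limma adjusted p = 0.0411). The median of the 10 genes read -1.75 and -2.49 in BUCY treated piglets 2 and 3 and lay between -0.023 and 0.68 in the other 3, against 0.015 to 0.83 in BUCY untreated piglets. It ran from -0.62 to 0.38 in DOX treated and from -0.61 to 0.50 in DOX untreated piglets.

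Without BUCY treated piglets 2 and 3 none of the 5 enterocyte genes passed (limma adjusted p = 0.0724 to 0.586), while FABP1 (1.67, limma adjusted p = 0.00672) and RBP2 (0.99, limma adjusted p = 0.016), binding proteins for fatty acids and retinol, were then called as higher after BUCY. With 1 array left out 2 to 5 of the 10 fell: ANPEP missed the threshold without BUCY treated piglet 2 or 3 or BUCY untreated piglet 1, APOA1 without BUCY treated piglet 2 or 3, and SLC5A1 without either of these or BUCY untreated piglet 1, 2, 4 or 5 (limma adjusted p = 0.0528 to 0.136). After DOX 0 of 10 were called by limma, against 0.868% of all tested genes. At an unadjusted limma p under 0.05 there were 0, beside 3422 of all 24767 tested genes. Between untreated groups 4 were higher in the BUCY experiment, APOA1 (1.84), SLC5A1 (1.51), DPP4 (1.29) and ANPEP (0.82), and FABP1 was lower, against 25.2% of all tested genes called. ANPEP missed the threshold there without DOX untreated piglet 3 or 4 or BUCY untreated piglet 1 or 2 (limma adjusted p = 0.0516 to 0.0814), and SLC5A1 without BUCY untreated piglet 1 (limma adjusted p = 0.0505), and none of these 5 passed with median centring in place of loess. Over the 22 arrays the enterocyte median had r = 0.31 with GHRL and 0.40 with CHGB. Without BUCY treated piglets 2 and 3, the 2 arrays farthest out in that median, these r were 0.40 and 0.58.

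Genes of dividing crypt cells ran the other way, with 6 of 10 listed tested. After BUCY 4 of 6 rose, against 17.3% of all tested genes: the survivin gene BIRC5 (1.72, limma adjusted p = 1.82e-05), the mitotic cyclin CCNB1 (1.68, limma adjusted p = 1.21e-04), CDC20, which activates the anaphase-promoting complex (1.15, limma adjusted p = 0.00834), and the mitotic kinase AURKA (0.71, limma adjusted p = 0.00877). CDC20 and AURKA did not pass without BUCY treated piglets 2 and 3 (limma adjusted p = 0.0851 and 0.053) or with median centring (limma adjusted p = 0.104 and 0.0847). After DOX 0 of 6 were called by limma, against 0.868% of all tested genes. At an unadjusted limma p under 0.05 there were 4, all lower, beside 3422 of all 24767 tested genes. Between untreated groups 5 of 6 were lower in the BUCY experiment, against 25.2% of all tested genes, with CCNB1 at -2.41 (limma adjusted p = 1.48e-07). The median of the 6 ran from -0.68 to 0.47 in BUCY treated, -1.51 to -0.69 in BUCY untreated, -0.41 to 0.26 in DOX treated and 0.10 to 0.81 in DOX untreated piglets. The part of enterocytes and dividing cells in the GHRL and CHGB differences was not tested.

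GHRL's own pattern over the arrays was most like that of DPEP1 (r = 0.909), a dipeptidase of the epithelial brush border, FOLH1B (0.897), C8G (0.887), IVNS1ABP (0.878) and the cytochrome P450 gene CYP2B22 (0.878). With group means removed these r were 0.40 to 0.72. The pattern of CHGB was most like that of UPK3A (0.858), a uroplakin, C8G (0.785), LOC396905 (0.775), FBXL4 (0.773) and IVNS1ABP (0.771). With group means removed these r were 0.40 to 0.70. C8G and IVNS1ABP were also among the genes named for GHRL. GHRL and CHGB correlated at r = 0.69 over the 22 arrays and at 0.15 with group means removed, so within groups the 2 genes varied nearly apart. These r share arrays, groups and the pool and were chosen as the highest, so they carry no test.

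Further genes of the ghrelin axis and of growth control were listed, 17 symbols, and 11 beside GHRL were tested. After BUCY and after DOX 0 of 11 were called by limma, against 17.3% and 0.868% of all tested genes. At an unadjusted limma p under 0.05 there were 3 and 5, beside 7996 and 3422 of all 24767 tested genes. Without BUCY treated piglets 2 and 3, LEAP2, a peptide that opposes ghrelin at its receptor, was called as higher after BUCY (1.15, limma adjusted p = 0.038) and as lower after DOX (-1.06, limma adjusted p = 0.032), and NPY, neuropeptide Y, as lower after DOX (-0.42, limma adjusted p = 0.0442). MBOAT4, which attaches the fatty acid that activates ghrelin, was well above background on 7 of 22 arrays and on no BUCY treated array, and GHSR, the ghrelin receptor, on 2. Between untreated groups 5 of 11 were called, against 25.2% of all tested genes. IGFBP3, a carrier of insulin-like growth factors, was higher in the BUCY experiment (log2 difference 0.88, limma adjusted p = 0.00145), and so was LEP, leptin (0.22, limma adjusted p = 0.0102). LEAP2 was lower (-1.45, limma adjusted p = 0.0242), the opposite direction to GHRL. It missed the threshold without BUCY untreated piglet 3, 4 or 5 (limma adjusted p = 0.0501 to 0.0663). NPY was lower (-0.36, limma adjusted p = 0.0177), but not without BUCY untreated piglet 4 (limma adjusted p = 0.0634). IGF1 (-0.40, limma adjusted p = 0.0469) lost its call without any 1 of 12 arrays (limma adjusted p = 0.0506 to 0.152).

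Enteric neurons and glia, the cells that UCHL1 and in part CHGB mark, were covered by 45 listed symbols, of which 15 had a probe and 13 beside the 4 genes were tested. After BUCY 1 of 13 rose, GAL, the neuropeptide galanin, and 0 fell, where 17.3% of all tested genes were called. GAL averaged 0.68 ± 0.43 in BUCY treated and 0.11 ± 0.31 in BUCY untreated piglets (SD, n = 5 each; log2 change 0.58, limma adjusted p = 0.0341). The call was lost without BUCY treated piglet 2, 3 or 4 or BUCY untreated piglet 1, 2 or 3 (limma adjusted p = 0.0643 to 0.118) and without BUCY treated piglets 2 and 3 together (0.43, limma adjusted p = 0.272). NEFL, closest to UCHL1 over the arrays, had a log2 change of 0.52 after BUCY that did not pass (limma adjusted p = 0.143). After DOX 0 of 13 were called by limma, against 0.868% of all tested genes. At an unadjusted limma p under 0.05 there was 1, beside 3422 of all 24767 tested genes. The changes with BUCY and DOX differed in 0 of 13 by limma, against 5.87%. Without adjustment 1 had a limma p under 0.05, beside 4887 of all 24767 tested genes. Between untreated groups 2 of 13 were called, against 25.2% of all tested genes: NPY was lower in the BUCY experiment and CALB1, calbindin of some enteric neurons, passed as higher (limma adjusted p = 0.0155). CALB1 was not well above background on any DOX untreated array, so no size is given, and without BUCY untreated piglet 1 it did not pass (limma adjusted p = 0.0502). The median of the 10 neuron genes ran from 0.036 to 0.23 in BUCY treated and from -0.16 to 0.15 in BUCY untreated piglets.

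Of the other ubiquitin hydrolases and ubiquitin genes, 6 were tested. After BUCY 1 of 6 was called, near the 17.3% of all tested genes, and between untreated groups 3 of 6, against 25.2%. UCHL5, a hydrolase of the proteasome, rose after BUCY, at 0.12 ± 0.35 in BUCY treated against -0.70 ± 0.097 in BUCY untreated piglets (SD, n = 5 each; log2 change 0.82, SE 0.136, limma adjusted p = 5.05e-04), with no overlap, and passed without BUCY treated piglets 2 and 3 (0.59, limma adjusted p = 0.00912). Its change with BUCY exceeded that with DOX by 1.10 (limma adjusted p = 0.0018). With median centring in place of loess neither passed, the change after BUCY being 0.31 (limma adjusted p = 0.328) and the difference between the drugs 0.77 (limma adjusted p = 0.251). UCHL5 had a log2 change of -0.28 after DOX that did not pass (limma adjusted p = 0.309). Between untreated groups UCHL5 (-1.09, limma adjusted p = 2.90e-06), UCHL3 (-0.97, limma adjusted p = 8.21e-07) and OTUB1 (-0.56, limma adjusted p = 0.00384) were lower in the BUCY experiment, where UCHL1 was higher. The change with BUCY and the difference between untreated groups share the BUCY untreated piglets, so their opposite signs are not separate evidence.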

How the data were processed

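Total RNA from the small intestine of 22 piglets was hybridised to 22 Agilent arrays (7 slides, 3 scan days). Per the labels, Cy5 marked the piglet and Cy3 the pool, without dye swaps. Scanner output from Agilent Feature Extraction 10.7.3.1 holds, per the file headers, the median intensity of spots and of their background, a log10 ratio of processed signals and other columns of flags. The authors also deposited a table of log2 ratios; its normalisation is not given in the sources used here, and its arrays correlated at 0.974 to 0.998 with the values used.

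Median intensities were corrected by normexp (offset 50) and loess-normalised within arrays in limma 3.58.1 (R 4.3.3), with control spots at weight 0 and outlier spots, none of them of the 4 genes, dropped. Medians took the place of the mean signals planned. Probe accessions joined to RefSeq pig genes named 6700 of 43603 probes (15.4%). A gene was represented by its brightest probe and tested where 5 or more arrays had Cy5 well above background (24767 genes, 2657 with a symbol). One limma model with 4 group means gave 4 comparisons, with Benjamini-Hochberg adjustment across all tested genes and calls made under 0.05; the step was tested on simulated data. The 4 genes were described by mean, SD and difference with its SE. The replicate is the piglet, and replicate numbers pair no animals.

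The 4 genes, the 19 gene lists and the alternatives were chosen with earlier results of these data known. All called genes of the hormone, neuron, ghrelin and ubiquitin lists were named, up to 6 per list and comparison, and for each of the 4 genes the 5 most alike by Pearson's r over the arrays, among genes above background on 18 arrays or more; NEFL, CCK and GHSR were named for their roles or likeness, and genes of the other lists after their values were seen. Figures used matplotlib 3.10.9 in Python 3.11.15. No sequence was printed.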

Additional observations from a re-analysis of the deposited data

Results flagged for a closer look

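Of 84 groups of arrays in 21 genes, 10 held 1 array set far apart from the rest of its group, where chance gives about 1 in 20. For UCHL1 it was BUCY untreated piglet 5, at 0.30 with the other 4 between -0.081 and 0.0057. TPM1 stood out in BUCY untreated piglet 3 (-0.42) and in DOX treated piglet 3 (-0.91), and DES in the same DOX treated piglet (-1.39). Single low values were also those of CALB1 in BUCY treated piglet 3 (-0.59), NPY in BUCY treated piglet 4 (-0.35), UCHL3 in BUCY untreated piglet 4 (-1.14) and LEAP2 in DOX untreated piglet 3 (0.19). Single high values were IGF1 in DOX untreated piglet 1 (0.52) and LEP in DOX untreated piglet 6 (-0.041). The change of UCHL5 with BUCY exceeded its change with DOX by 1.10 in the test of that difference (limma adjusted p = 0.0018), and by 0.77 with median centring, which did not pass (limma adjusted p = 0.251).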

How the results depend on the processing

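Over 40 other settings, of which 22 leave out 1 array, 625 of 636 differences of the 4 genes kept their sign. Leaving out an array of 1 experiment cannot change a difference within the other experiment. Many of the 636 could therefore not move, and their share is no measure of robustness. The exceptions were GHRL after DOX in 9, and the UCHL1 difference between drugs in 2: -0.066 with median centring and -0.14 without BUCY treated piglets 2 and 3. Median centring in place of loess, which moved the median of all genes after BUCY to -0.12, gave -1.16 for CHGB and 0.16 for UCHL1 after BUCY; without the 2 piglets UCHL1 was 0.24. The mean of all PCSK1 probes gave -0.19 after BUCY and -0.076 for the difference between drugs. Leaving out the 6 arrays with a title suffix gave -0.96 and -0.75. That setting keeps only BUCY treated piglets 1 and 2 and BUCY untreated piglets 1 to 3, here and for the counts below. These are the BUCY arrays of scan day 1, so -0.96 repeats the PCSK1 value within that day. On the deposited value table GHRL differed by -1.14, CHGB by -0.71, PCSK1 by -0.57 and UCHL1 by 0.73 after BUCY. The cause was not tested. Of the calls of named genes 2513 were kept, 268 were lost and 0 reversed.

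The number of genes called after DOX (215) was 89 with median centring, 682 with scaling between arrays, 129 with Cy5 alone, 142 with Cy5 well above background on all arrays, 349 and 356 with slide as a fixed and a random block, 742 with the 2 groups alone, 1260 with array weights, 493 without BUCY treated piglets 2 and 3, and 119 to 356 with 1 array left out. After BUCY (4275) it was 2299 with slide as a fixed block, 1483 without the title suffix, 890 with the 2 groups alone, 1122 without the 2 piglets, and 2283 to 6289 with 1 array left out. For the difference between drugs (1454) it was 104 with median centring, 723 with Cy5 alone, 330 without the title suffix, 730 without the 2 piglets, and 935 to 2392 with 1 array left out. Between untreated groups (6243) it was 3849 with median centring and 5248 to 6752 with 1 array left out.

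Of the hormone list, 0 genes were called after BUCY with scaling, Cy5 alone, no filter on dim probes, slide or scan day as a fixed block, the 2 groups alone, array weights or without the 2 piglets, and 0 to 3 with 1 array left out. After DOX 1 was called with scaling, array weights or without the 2 piglets. For the difference between drugs 0 to 1 were called with 1 array left out. Of the neuron and glia list, 0 were called after BUCY with median centring, scaling, slide as a fixed block, the 2 groups alone or without the 2 piglets, and 0 to 2 with 1 array left out. After DOX 1 was called with an offset of 16, scaling, the mean of all probes, slide as a random block, the 2 groups alone, array weights or without the 2 piglets, and 0 to 1 with 1 array left out. Between untreated groups 0 were called with Cy5 alone, 1 with Cy5 well above background on all arrays, slide as a fixed block or without the title suffix, and 1 to 2 with 1 array left out. Slide as a fixed block takes BUCY treated piglet 2, alone on its slide, out of the comparisons. Scan day as a block and the removal of both piglets were added after seeing the data. No paired analysis was possible because replicate numbers follow the order of the samples and pair no animals. Signal limits CALB1, MBOAT4 and the 2 dimmer PCSK1 probes, which were near background on many arrays.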
